A study of Homo sapiens with 6 samples.

Results

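The respiratory chain of NB4 cells was described across both genomes that encode it, in cells overexpressing CD69 and in cells carrying the vector. Members were the protein-coding genes whose symbols begin with NDUFA, NDUFB, NDUFC, NDUFS, NDUFV, UQCR, COX4, COX5, COX6, COX7, COX8, ATP5F, ATP5M or ATP5P, the genes SDHA, SDHB, SDHC, SDHD and CYC1, and the 13 protein genes of mitochondrial DNA. The rule uses gene names and no measured value, but it was set with earlier results of these data known. It gave 111 of the 61806 genes in the deposited count table, 98 of them nuclear and 13 mitochondrial. The nuclear members comprised 37 genes of complex I, 4 of complex II, 10 of complex III, 19 of complex IV and 18 of complex V. The same prefixes also took in 8 complex I assembly factors (the NDUFAF genes) and 2 read-through genes, which are kept apart below. NDUFA4 and NDUFA4L2 are counted with complex IV, to which NDUFA4 belongs despite its name. Another 187 pseudogene or non-coding entries with these prefixes were left out.

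NB4 is an established line of acute promyelocytic leukaemia. The 3 overexpressing libraries came from NB4 cells in which a lentivirus drove CD69, an early activation marker of the leukocyte surface, and the 3 control libraries from vector control cells, labelled wild type. All cells were in logarithmic growth and received no drug, and all libraries carry 1 batch label. Poly(A) RNA was sequenced in pairs from strand-specific libraries. Separate transductions are not mentioned in the labels, so each group may be 1 transduced population. The p-values therefore describe the spread among these 6 libraries.

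The respiratory chain is the set of enzyme complexes in the inner mitochondrial membrane that passes electrons from nutrients to oxygen and uses the energy to pump protons. Complex I takes electrons from NADH and complex II from succinate, ubiquinone carries them to complex III, and cytochrome c carries them on to complex IV, which reduces oxygen. Complex V, the ATP synthase, lets the protons flow back and makes ATP. Complexes I, III, IV and V are built from subunits of both genomes, and complex II from nuclear subunits alone.

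Total counts were 51543550 to 56239830 in the overexpressing libraries and 55716218 to 57463020 in the controls. Levels are given in CPM, counts relative to the library's total after TMM scaling, which corrects that total for the library's composition. CD69 itself held 97.7 ± 1.75 CPM in overexpressing cells and 77.6 ± 6.14 CPM in controls (SD, n = 3 each). The log2 fold change was 0.33 (SE 0.07, adjusted p = 0.0153 by edgeR), a call that was lost without overexpressing replicate 2 (0.32, adjusted p = 0.0618). Of the promyelocyte markers, MPO was near 0, at 0.518 to 1.03 CPM in overexpressing libraries and 0.928 to 1.45 CPM in controls. The other granule genes were present, and the 6 promyelocyte markers summed to 3283 to 3805 CPM in overexpressing libraries and 1785 to 2008 CPM in controls. The 8 B cell markers summed to 37.4, 217.5 and 231 CPM in overexpressing replicates 1, 2 and 3 and to 22.6 to 35.7 CPM in controls. T cell markers summed to at most 1.23 CPM in any library and erythroid markers to at most 0.428 CPM. The part of these differences in the results below was not tested, and in bulk RNA fewer cells of a type cannot be told apart from less RNA per cell.

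Replicate 3 of each group stood apart for the nuclear members, which bears on every result below. Among the 83 nuclear subunits tested, replicate 3 was the highest of its group for 78 in overexpressing cells and for 79 in controls. The median log2 ratio of replicate 3 to the mean of replicates 1 and 2 was 0.25 in overexpressing cells and 0.32 in controls. Across the same 83 genes this ratio fell with transcript length, with Spearman's rho of -0.37 in overexpressing cells and -0.47 in controls. Over 10248 coding genes of at least 5 CPM, replicate 3 was the highest for 40.5% of genes in overexpressing cells and 45.1% in controls, and rho with length was -0.61 in overexpressing cells and -0.58 in controls. These correlations are over genes of the same libraries, which are not independent. The nuclear subunits are short, with a median principal transcript of 930 bases against 3028 bases for those coding genes. Mitochondrial genes had no common upward shift, since replicate 3 was the highest for 5 of 13 in overexpressing cells and 6 of 13 in controls. Some of them still shifted alike in both groups, up or down. The same log2 ratio was -0.46 in overexpressing cells and -0.56 in controls for MT-ND4L. For MT-ND3 it was 0.24 in overexpressing cells and 0.28 in controls. The shift widens the spread within both groups, so the counts of members called, overall and for each complex, are also given without replicate 3 of both groups, an alternative chosen after seeing the data.

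**Figure D1:**
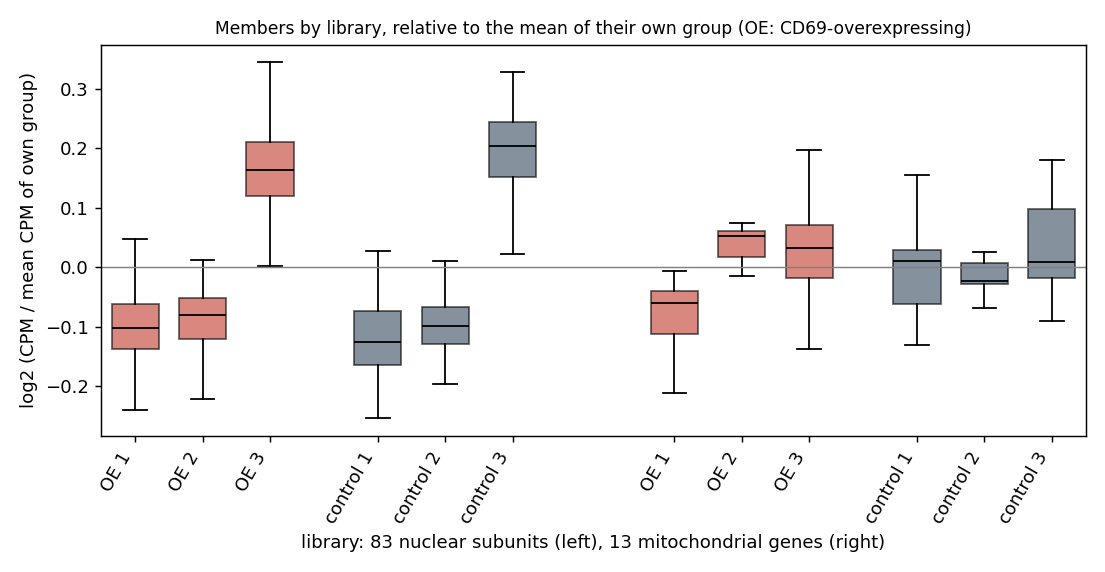
Spread of the members by library. The y axis shows the log2 ratio of each gene's CPM to the mean of its own group, for 83 nuclear subunits (left) and 13 mitochondrial genes (right). Boxes give the quartiles with the median as a line, whiskers reach to 1.5 times the box height, and points beyond them are not drawn. Replicate 3 sits above replicates 1 and 2 in both groups for nuclear subunits, and mitochondrial genes show no such common shift.

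How many members passed the test depended on replicate 3. Of 105 members tested by edgeR's quasi-likelihood test, with p-values adjusted over all 19485 genes tested, 7 were higher in overexpressing cells and 3 were lower at an adjusted p under 0.05. The background over the whole table was 14.2% higher and 9.94% lower, 24.1% together, and the share of members called was 9.52%. Without replicate 3 of both groups, 19 members were higher and 27 lower of 104 tested, which is 44.2% of members against a background of 31.1% of all genes. The share of members therefore lay below the background with replicate 3 and above it without, and no reading of the members against the background holds for both. The groups did not overlap for 29 members, 15 above and 14 below the controls, which is 27.6% of those tested against 42.3% of all genes, 19.3% below and the rest above. At an unadjusted p under 0.05 there were 30 members, 28.6% of those tested, against 36.7% of all genes. These shares of all genes are also the background for the counts by genome and complex below. Over the whole table DESeq2 called 3177 genes higher and 2720 lower, and limma-voom 2804 higher and 2041 lower. The 6 members that failed the filter on low counts were COX4I2, COX6A2, COX7A1, COX7B2, ATP5MGL and the read-through ATP5MF-PTCD1. The other read-through, NDUFC2-KCTD14, shares exons with NDUFC2 and KCTD14 and was uneven among the overexpressing libraries (log2 fold change 1.01, edgeR adjusted p = 0.196), so its counts are uncertain.

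The medians of the genomes lay on either side of 0, except without control replicate 3. The median log2 fold change was 0.11 over the 13 mitochondrial genes, of which 3 rose and none fell (edgeR; 5 had an unadjusted p under 0.05, and DESeq2 and limma-voom each called 1 lower), and -0.09 over the 92 nuclear members tested, of which 4 rose and 3 fell. Without replicate 3 of both groups, 4 mitochondrial genes were higher and 1 lower, and 15 nuclear members were higher and 26 lower, with medians of 0.11 and -0.07. Calls over all libraries made up 23.1% of the mitochondrial genes and 7.61% of the nuclear members tested, against 24.1% of all genes. That background was 31.1% without replicate 3 of both groups. The median over all genes tested was 0.01. Without control replicate 3 the mitochondrial median was 0.050 and the nuclear median 0.013, so that both were positive and close together. Without overexpressing replicate 2 the mitochondrial median was 0.051. The nuclear median was -0.15 without control replicate 1, -0.18 without control replicate 2 and -0.19 without overexpressing replicate 3. Mitochondrial protein transcripts summed to 66078, 71021 and 68821 CPM in overexpressing libraries and to 62720.4, 61786 and 62919 CPM in controls. All overexpressing libraries lay above all controls (mean 68640.4 ± 2476 against 62475 ± 605 CPM, log2 difference 0.14, two-sided exact permutation p = 0.1, the smallest that 3 against 3 can give, adjusted to 0.30 over the sums of both genomes and their ratio). Nuclear members summed to 8761, 8789 and 10217 CPM in overexpressing libraries and to 9091, 9133 and 10909 CPM in controls. Here the groups overlapped, and replicate 3 was the highest in both (log2 difference -0.07, exact permutation p = 0.5, adjusted 0.50). The ratio of the mitochondrial to the nuclear sum was 7.45 ± 0.677 in overexpressing cells and 6.48 ± 0.618 in controls (exact permutation p = 0.3, adjusted 0.45), and the groups overlapped. As a share of all counts, mitochondrial protein genes took 6.88% ± 0.218 in overexpressing libraries and 6.23% ± 0.0858 in controls (SD, n = 3 each).

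Human mitochondrial DNA is transcribed as long precursors that are cut into the single RNAs, and each of its protein genes encodes a subunit of its complex. The 3 mitochondrial genes that passed the test lie side by side on the heavy-strand transcript: MT-ATP8 and MT-ATP6, membrane subunits of ATP synthase, and MT-CO3, a core subunit of cytochrome c oxidase. In the GRCh38 mitochondrial sequence with the GENCODE 29 annotation, MT-ATP8 covers bases 8366 to 8572, MT-ATP6 8527 to 9207 and MT-CO3 9207 to 9990. The junctions are shown because the genes share bases there, so that a read over them can belong to either gene. Capitals mark the shared bases, 46 between MT-ATP8 and MT-ATP6 (8527 to 8572) and 1 between MT-ATP6 and MT-CO3 (9207), on the plus strand with flanks in lower case (chrM:8507-8592 and chrM:9187-9227).
MT-ATP8/MT-ATP6: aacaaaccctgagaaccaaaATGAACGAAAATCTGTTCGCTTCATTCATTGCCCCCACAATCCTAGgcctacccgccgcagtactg
MT-ATP6/MT-CO3: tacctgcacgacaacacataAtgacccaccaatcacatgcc

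MT-CO3 held 9633, 9879.9 and 10274 CPM in overexpressing libraries, against 6557, 6707 and 7508 CPM in controls. Every overexpressing library was above every control, and the log2 fold change was 0.52 (SE 0.07, edgeR adjusted p = 0.00135). MT-ATP8 held 1378, 1511 and 1418 CPM in overexpressing libraries, against 1148, 1121 and 1034 CPM in controls. The groups were again apart, with a log2 fold change of 0.38 (SE 0.07, edgeR adjusted p = 0.00525). MT-ATP6 held 4896, 5426 and 5559 CPM in overexpressing libraries and 4277, 4241 and 4412 CPM in controls. It rose by a log2 fold change of 0.30 (SE 0.06, edgeR adjusted p = 0.0132), and overexpressing replicate 1 was the nearest to the controls. The MT-ATP6 call was lost without control replicate 1 (adjusted p = 0.0639), control replicate 2 (0.0901) or overexpressing replicate 2 (0.0875). With overexpressing replicate 1 as the only overexpressing library, none of the 3 passed, at log2 fold changes of 0.48 for MT-CO3 (adjusted p = 0.0530), 0.32 for MT-ATP8 (0.145) and 0.18 for MT-ATP6 (0.271).

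The genes on either side, MT-CO2 and MT-ND3, had log2 fold changes of -0.10 and -0.08 and did not pass the test. The ratio of the summed MT-ATP8, MT-ATP6 and MT-CO3 to the other 10 mitochondrial protein genes was 0.317, 0.310 and 0.335 in overexpressing libraries, against 0.236, 0.243 and 0.259 in controls. The log2 difference was 0.38. These 3 genes were put together because they passed the test above, so the ratio is a description, with no test. MT-CO3 was 0.533 ± 0.0270 times MT-CO1 in overexpressing cells and 0.395 ± 0.0345 times in controls. Against MT-CO2 it was 1.82 ± 0.1002 times in overexpressing cells and 1.18 ± 0.0348 times in controls, a log2 difference of 0.63. A ratio within a library shows unequal change and does not say which of its terms moved.

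Among the other complex IV genes of mitochondrial DNA, MT-CO1, which holds the oxygen-reducing site, had 18202, 19440.4 and 18291 CPM in overexpressing libraries, against 17896, 17390.5 and 17326 CPM in controls. All overexpressing libraries were above the controls, by a small margin (log2 fold change 0.09, SE 0.05, edgeR adjusted p = 0.261). MT-CO2, which takes electrons from cytochrome c, overlapped between groups (5480.1 ± 461 CPM in overexpressing cells, 5893 ± 547 CPM in controls, log2 fold change -0.10).

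Complex I has 7 mitochondrial genes, and none passed the edgeR test over all libraries. MT-ND1, which forms part of the quinone site, came closest there. It held 2550.01, 2813 and 2774 CPM in overexpressing libraries and 3048, 3037 and 3172 CPM in controls. All overexpressing libraries were below all controls (log2 fold change -0.19, SE 0.06, edgeR adjusted p = 0.0597), the opposite direction from MT-CO3, and DESeq2 and limma-voom each called it lower. MT-ND1 was called under 7 of the 19 alternatives, those by DESeq2 and limma-voom included. Among these 7 genes, edgeR without replicate 3 of both groups called MT-ND4 higher and MT-ND1 lower. MT-ND6, the only protein gene of the light strand, had 843, 967 and 1118 CPM in overexpressing libraries and 761, 793 and 863 CPM in controls. Overexpressing replicate 1 fell within the control range (log2 fold change 0.28, SE 0.11, edgeR adjusted p = 0.102). MT-ND4 was above the controls in all 3 overexpressing libraries (13035 ± 448 against 12075 ± 171 CPM, log2 fold change 0.11, edgeR adjusted p = 0.163). MT-ND2 (0.06), MT-ND3 (-0.08), MT-ND4L (0.13) and MT-ND5 (0.13) overlapped between groups on the log2 scale. MT-ND4L, which shares bases with MT-ND4, and MT-ND5 were lowest in replicate 3 of both groups. MT-CYB, the cytochrome b of complex III, was below the controls in all overexpressing libraries (2457 ± 75.9 against 2624 ± 48.2 CPM, log2 fold change -0.09, edgeR adjusted p = 0.249).

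**Figure D2:**
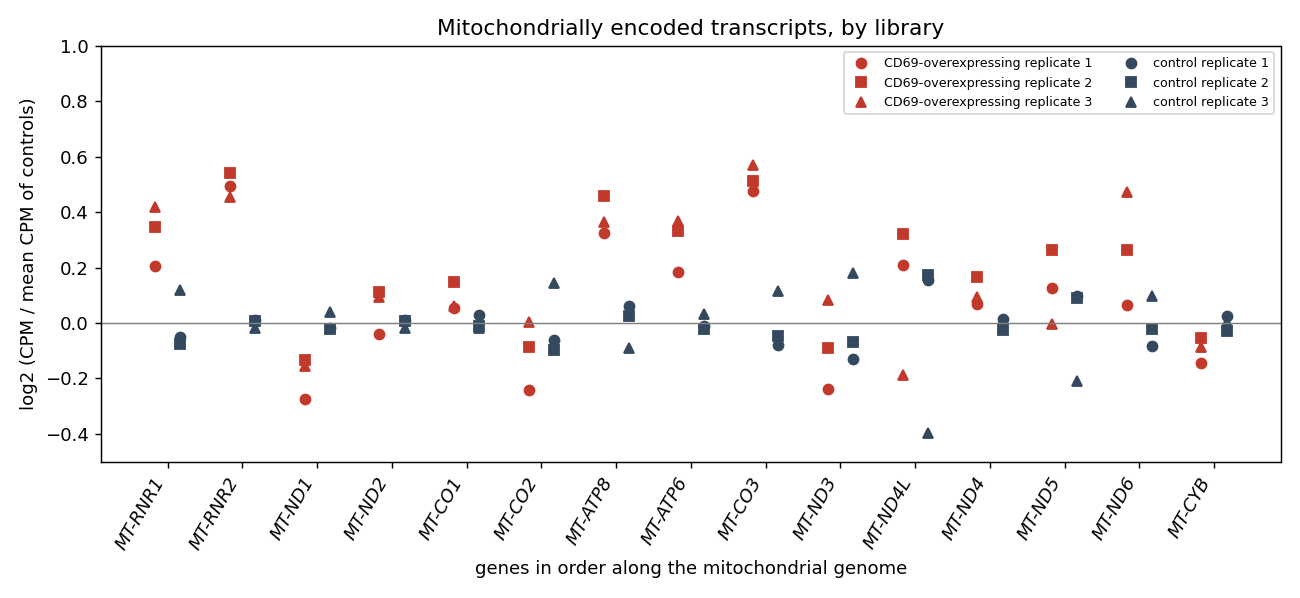
Mitochondrial transcripts by library. The y axis is the log2 ratio of each library's CPM to the mean CPM of the controls, and the x axis lists the 2 ribosomal RNAs and 13 protein genes in their order along the mitochondrial genome. Points are single libraries, red for overexpressing and dark blue for control. The overexpressing points of MT-RNR1, MT-RNR2, MT-CO1, MT-ATP8, MT-ATP6, MT-CO3 and MT-ND4 lie above all control points, and those of MT-ND1 and MT-CYB lie below.

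Per kilobase of transcript, the mitochondrial genes ranged from 823 CPM per kilobase for MT-ND3 to 11732 for MT-CO1, as means over all 6 libraries. MT-CO3 was second in this order at 10748. The highest nuclear member, ATP5F1B, reached 459.9, below the lowest mitochondrial gene. In overexpressing cells MT-CO3 stood at 12665 CPM per kilobase and MT-CO1 at 12091, while in controls MT-CO3 stood at 8832 and MT-CO1 at 11373. These levels are per length of the principal transcript, and poly(A) selection and short genes can shift them.

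The ribosomal RNAs of mitochondrial DNA, which are not members, were also higher. MT-RNR2, the large ribosomal RNA, held 9657, 9978 and 9386 CPM in overexpressing libraries and 6908, 6884 and 6769 CPM in controls (log2 fold change 0.50, SE 0.05, edgeR adjusted p = 0.000462). MT-RNR1, the small one, had a log2 fold change of 0.33 (SE 0.08, edgeR adjusted p = 0.0240). Poly(A) selection captures these RNAs only in part.

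Nuclear DNA holds copies of mitochondrial genes, and 404 such entries were listed in the count table, 13 of which were tested. Of these 13, 2 were higher and 0 lower by edgeR, with a median log2 fold change of 0.38, against 24.1% of all genes called. MTATP6P1, at chromosome 1, 633696 to 634376, is 681 bases long and differs from MT-ATP6 at 10 bases (98.5% identity). It held 949.7, 1029 and 1111 CPM in overexpressing libraries and 766, 769 and 841 CPM in controls, a log2 fold change of 0.38 (edgeR adjusted p = 0.01001) close to that of MT-ATP6. MTCO1P12, the copy of MT-CO1, held 310.6 to 333 CPM in overexpressing libraries and 299 to 318 CPM in controls (log2 fold change 0.05). MTCO3P12 held 4.605 to 7.38 CPM in overexpressing libraries and 4.57 to 4.74 CPM in controls (log2 fold change 0.46, edgeR adjusted p = 0.157). MTATP8P1, the other called copy, was near 0, at 0.750 to 1.54 CPM in overexpressing libraries and 0.232 to 0.535 CPM in controls (log2 fold change 1.45, edgeR adjusted p = 0.0498). Reads of the mitochondrial genes and of these copies can be assigned to either, so part of the counts of MT-ATP6, MT-CO1 and MT-ND2, whose copies were the most abundant of those compared, is uncertain.

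In nuclear complex I, the largest group, the calls depended on replicate 3. None of the 37 genes was called by edgeR over all libraries, against 6 higher and 8 lower without replicate 3 of both groups. Of all genes, 24.1% were called over all libraries and 31.1% without replicate 3. Over all libraries 9 had an unadjusted p under 0.05, DESeq2 called 2 higher and 2 lower, and limma-voom called 1 higher. The median log2 fold change was -0.09, with 12 positive and 25 negative values between -0.38 and 0.39. Core subunits carry the flavin and iron-sulfur clusters or shape the quinone site. Among them, log2 fold changes were -0.09 for NDUFV1, 0.03 for NDUFV2, -0.08 for NDUFS1 and -0.23 for NDUFS8. Among accessory subunits, NDUFA1, encoded on the X chromosome, held 30.0, 29.2 and 33.9 CPM in overexpressing libraries, against 20.9, 22.5 and 27.7 CPM in controls. The groups did not overlap (log2 fold change 0.39, SE 0.12, edgeR adjusted p = 0.0540), and RNF113A overlaps its exons on the opposite strand. NDUFA12 held 29.8, 30.4 and 33.8 CPM in overexpressing libraries and 36.0, 37.0 and 43.6 CPM in controls. It was lower in every overexpressing library (log2 fold change -0.31, SE 0.10, edgeR adjusted p = 0.0574).

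NDUFA9 (-0.31, edgeR adjusted p = 0.0699), NDUFB1 (-0.38, 0.130) and NDUFB10 (-0.30, 0.118) also lay below the controls in every overexpressing library on the log2 scale. NDUFV3 lay above in every one (0.17, 0.136). NDUFB9, the most abundant nuclear complex I transcript per length at 348 CPM per kilobase, held 245, 263 and 313 CPM in overexpressing libraries and 197, 208 and 258 CPM in controls, where control replicate 3 overlapped with the overexpressing range (log2 fold change 0.31, edgeR adjusted p = 0.122). NDUFS5 and NDUFA11 followed it in level, at 187 and 159 CPM per kilobase. Exons of MTSS1 and TATDN1 overlap NDUFB9 on the opposite strand, and another gene shares exon bases with NDUFA11 on its own strand. The levels of NDUFB9 and NDUFA11 rest on principal transcripts of 711 and 539 bases, while all their annotated exons cover 4106 and 4839 bases. NDUFA9 was the lowest at 9.70, which rests on a principal transcript of 8363 bases.

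Complex II, succinate dehydrogenase, showed opposite differences among its subunits. SDHB, the iron-sulfur subunit that passes electrons on, held 122, 124 and 146 CPM in overexpressing libraries and 154, 158 and 173 CPM in controls. All overexpressing libraries were below all controls, with a log2 fold change of -0.31 (SE 0.09, edgeR adjusted p = 0.0411). SDHD, a membrane anchor that binds ubiquinone with SDHC, held 111, 119 and 131 CPM in overexpressing libraries and 105, 98.4 and 94.6 CPM in controls. It rose, with a log2 fold change of 0.28 (SE 0.08, edgeR adjusted p = 0.0413), and exons of TIMM8B overlap it on the opposite strand. The ratio of SDHD to SDHB was 0.914, 0.957 and 0.894 in overexpressing libraries, against 0.681, 0.622 and 0.546 in controls, a log2 difference of 0.59. The pair was chosen for its opposite calls, so this ratio is a description, with no test. SDHA, the flavoprotein that oxidises succinate, held 160.3, 151 and 167 CPM in overexpressing libraries and 129, 138 and 146 CPM in controls, apart but not past the threshold (log2 fold change 0.21, SE 0.07, edgeR adjusted p = 0.0663). SDHC, the other anchor, overlapped between groups (119.7 ± 9.49 CPM in overexpressing cells, 115 ± 7.53 CPM in controls).

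Both complex II calls were close to the threshold. That of SDHB was lost without control replicate 1, 2 or 3 (adjusted p = 0.0761, 0.0943 and 0.0837 by edgeR) and without overexpressing replicate 1 or 2 (0.129 and 0.154). That of SDHD was lost without control replicate 1, 2 or 3 (adjusted p = 0.0674, 0.143 and 0.0693 by edgeR) and without overexpressing replicate 2 or 3 (0.120 and 0.108). The direction of both held in every alternative run. Without replicate 3 of both groups, 2 of the 4 subunits were higher and 1 lower, against 31.1% of all genes called. Over all libraries 50.0% of the 4 subunits were called, against 24.1% of all genes.

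The promoters of SDHB, SDHD and NDUFAF4 are printed. Of the 7 called nuclear members, only these matched a motif named below within the 250 bases before the start. Every printed sequence therefore holds a match by choice. The promoters of ATP5F1E, COX7A2 and COX7B matched none of the motifs in the 300 bases searched. That of NDUFAF5 matched the NRF1 motif there, but not within the 250 bases before the start. Nuclear respiratory chain genes are known as targets of NRF1, of ETS-family factors including GABP, of YY1 and of the oestrogen-related receptors. RefSeq promoters (GRCh38.p14, 250 bases before to 50 after the start) matched 79 of 98 nuclear members by symbol. Each line gives the 250 bases before the start, 5′ to 3′ on the gene's strand, with capitals for matches on either strand to the NRF1 motif (GCGCA, any base, GCGC) or to CCGGAAG (ETS). The windows are SDHB at chr1:17054033-17054282 (minus strand), SDHD at chr11:112086623-112086872 (plus strand) and NDUFAF4 at chr6:96897892-96898141 (minus strand).
SDHB: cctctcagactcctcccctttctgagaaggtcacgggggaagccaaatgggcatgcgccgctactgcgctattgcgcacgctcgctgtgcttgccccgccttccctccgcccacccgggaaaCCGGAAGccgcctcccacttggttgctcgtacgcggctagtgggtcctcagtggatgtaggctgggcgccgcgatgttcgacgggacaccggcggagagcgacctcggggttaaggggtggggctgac
SDHD: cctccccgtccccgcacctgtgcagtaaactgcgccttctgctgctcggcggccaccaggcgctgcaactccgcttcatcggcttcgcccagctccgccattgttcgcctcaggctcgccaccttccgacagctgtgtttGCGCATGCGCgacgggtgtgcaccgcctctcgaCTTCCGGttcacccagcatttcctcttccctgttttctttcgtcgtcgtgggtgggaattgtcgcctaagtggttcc
NDUFAF4: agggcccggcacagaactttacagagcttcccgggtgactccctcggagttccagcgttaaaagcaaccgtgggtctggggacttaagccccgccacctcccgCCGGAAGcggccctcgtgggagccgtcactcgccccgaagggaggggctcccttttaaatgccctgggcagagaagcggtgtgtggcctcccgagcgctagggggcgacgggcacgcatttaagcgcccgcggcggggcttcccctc

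Over the whole window of 300 bases, the NRF1 motif was present in 22.8% of the 79 members' promoters, against 6.28% of all 27305 promoters in the table and 8.61% of those of coding genes in the count table. CCGGAAG was present in 26.6% of members, 10.7% of all promoters and 14.4% of coding genes. AANATGGCG, searched for YY1, was present in 20.3% of members, 3.37% of all promoters and 4.93% of coding genes. TNAAGGTCA, searched for the oestrogen-related receptors, was present in 2.53% of members, 0.963% of all promoters and 0.627% of coding genes. Both strands were searched, and none of these motifs is contained in another. At least 1 motif was found in 43 of the 79 members and in 4 of the 7 nuclear members past the threshold. A match describes letters in a window and is no measured binding site.

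In complex III none of the 10 nuclear genes was called by edgeR, with 3 at an unadjusted p under 0.05. DESeq2 called 1 lower and limma-voom none, and edgeR without replicate 3 of both groups called 1 higher and 3 lower. The edgeR background was 24.1% of all genes over all libraries and 31.1% without replicate 3. CYC1, the cytochrome c1 that hands electrons to cytochrome c, held 172, 170.3 and 196 CPM in overexpressing libraries and 216, 202 and 261 CPM in controls. All overexpressing libraries were below the controls (log2 fold change -0.34, SE 0.11, edgeR adjusted p = 0.0580). UQCRH, the hinge protein beside cytochrome c1, was the most abundant per length at 279 CPM per kilobase and overlapped between groups (155 ± 16.9 CPM in overexpressing cells, 182 ± 14.6 CPM in controls, log2 fold change -0.24). Its near-identical copy UQCRHL was the least abundant at 1.65 CPM per kilobase, and reads of the pair may have been split. The Rieske iron-sulfur protein UQCRFS1 had a log2 fold change of 0.21 (edgeR adjusted p = 0.129) and the core protein UQCRC1, second in level at 172 CPM per kilobase, had -0.03.

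In nuclear complex IV 1 gene rose and 1 fell among 15 tested, 13.3% against 24.1% of all genes. Without replicate 3 of both groups, 2 were higher and 5 lower of 14, against 31.1% of all genes called. COX7A2, a small accessory subunit in its widely expressed form, held 52.3, 53.2 and 61.5 CPM in overexpressing libraries and 81.2, 80.9 and 101 CPM in controls. It fell in every overexpressing library, with a log2 fold change of -0.65 (SE 0.11, edgeR adjusted p = 0.00441). COX7B, another accessory subunit, encoded on the X chromosome, held 102, 106 and 121 CPM in overexpressing libraries and 81.9, 78.7 and 98.4 CPM in controls. It rose by a log2 fold change of 0.35 (SE 0.11, edgeR adjusted p = 0.0481), with control replicate 3 just below the lowest overexpressing library. The COX7B call was lost without control replicate 1 (edgeR adjusted p = 0.161), control replicate 2 (0.194), or overexpressing replicate 1 (0.0709), 2 (0.125) or 3 (0.138). It was also lost with edgeR's RLE (0.0639) or upper-quartile (0.0648) scaling. The call held with total counts only (0.0300) and with nuclear genes alone for scaling (0.0482). COX7A2L, a relative of COX7A2 that links complexes III and IV, was below the controls in every overexpressing library without passing the threshold (79.1 ± 7.01 against 94.6 ± 5.17 CPM, log2 fold change -0.26, edgeR adjusted p = 0.0588).

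Several complex IV subunits exist as paired forms, of which 1 is widespread and the other bound to muscle, lung or testis. The widespread forms COX4I1, COX6A1, COX6B1, COX7A2, COX7B, COX8A and NDUFA4 were the more abundant of each pair here. COX4I1 stood at 340.3 CPM per kilobase in overexpressing cells and 379 in controls, and its partner COX4I2 had 23 counts in overexpressing replicate 2 and 0 in the other 5 libraries. COX6A2, the heart and muscle form, had 8, 18 and 9 counts in overexpressing libraries and 0 in each control. Whether 1 fragment stands for 1 or for about 4 of these counts is not known, so the number of fragments behind them is uncertain. COX7A1 had 3, 4 and 0 counts in overexpressing libraries and 0 in controls, and COX7B2 had 0 in every library. COX6B2, the testis form, passed the filter at 0.182 ± 0.123 CPM in overexpressing cells and 0.189 ± 0.0568 CPM in controls. COX8C, also known from testis, stood at 8.99 ± 0.711 CPM in overexpressing cells and 7.84 ± 1.06 CPM in controls (log2 fold change 0.20, edgeR adjusted p = 0.388). NDUFA4L2, a hypoxia-responsive relative of NDUFA4, held 9.07 ± 0.388 CPM in overexpressing cells and 8.89 ± 0.361 CPM in controls, with no separation of the groups. COX8A and COX6A1 followed COX4I1 in level, at 232 and 224 CPM per kilobase.

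**Figure D3:**
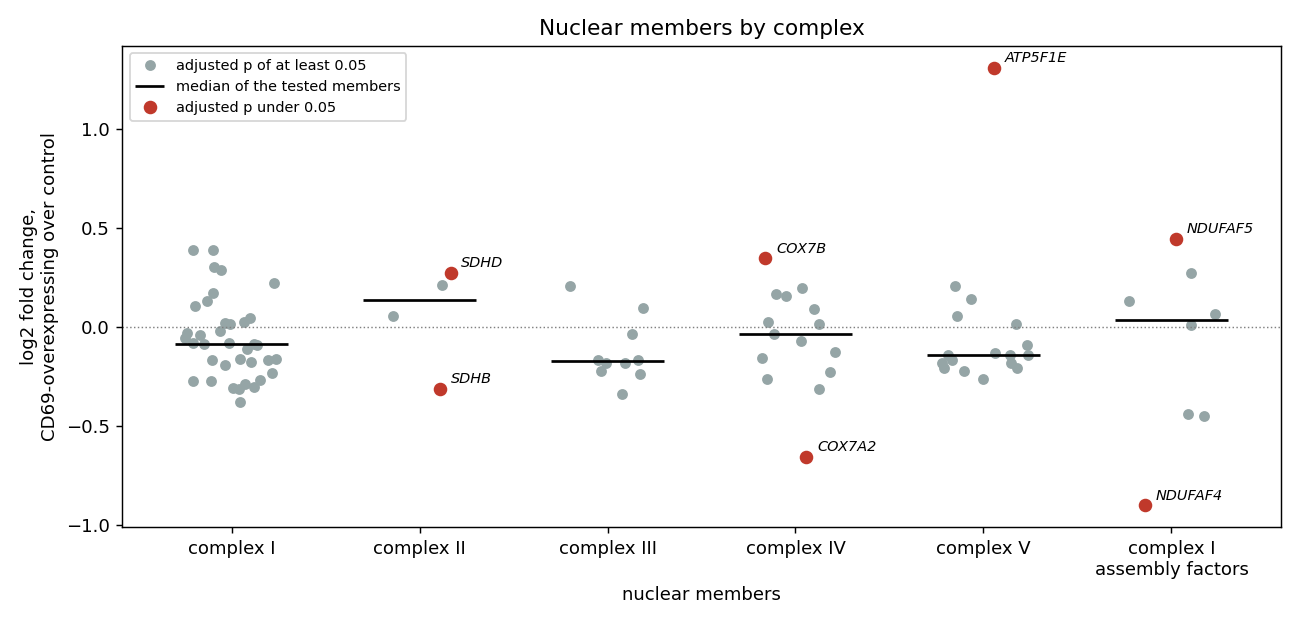
Log2 fold changes, overexpressing over control, of the nuclear members tested, by complex and for the complex I assembly factors. Each point is 1 gene, red where the edgeR adjusted p was under 0.05, and black lines are the medians of the tested genes. Most points lie between -0.4 and 0.4, and the called genes ATP5F1E and NDUFAF4 are at 1.31 and -0.90.

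In nuclear complex V 1 of 17 tested genes rose and none fell by edgeR, with 2 at an unadjusted p under 0.05. DESeq2 called 1 higher and 1 lower, and limma-voom 1 higher. Without replicate 3 of both groups, edgeR called 3 higher and 6 lower, against 31.1% of all genes called. Over all libraries 5.88% of these genes were called by edgeR, against 24.1% of all genes. ATP5F1E, the epsilon subunit of the rotating stalk, held 32.7, 36.4 and 48.5 CPM in overexpressing libraries and 13.2, 15.0 and 19.1 CPM in controls. It was higher in every overexpressing library, with the largest log2 fold change among the tested members, 1.31 (SE 0.18, edgeR adjusted p = 0.00198). Exons of TUBB1 overlap it on the opposite strand, so part of its counts is uncertain without the strand setting. ATP5F1E was also the lowest nuclear gene of complex V per length, at 20.9 CPM per kilobase in overexpressing cells and 8.41 in controls. The catalytic beta subunit ATP5F1B, the most abundant nuclear member, held 797 ± 39.9 CPM in overexpressing cells and 895 ± 74.4 CPM in controls. It was below the controls in every overexpressing library but not past the threshold (log2 fold change -0.17, edgeR adjusted p = 0.161). The same held for ATP5PB of the peripheral stalk, which had 289, 294 and 329 CPM in overexpressing libraries and 350.5, 336 and 367 CPM in controls (log2 fold change -0.21, SE 0.07, edgeR adjusted p = 0.0762). ATP5MC3, which encodes the subunit of the proton-carrying ring, and ATP5MF overlapped between groups (-0.18 and 0.14 on the log2 scale).

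The assembly factors taken in by the prefix held the lowest fold change of all. Of these 8, 1 rose and 1 fell, 25.0% against 24.1% of all genes. Without replicate 3 of both groups, 1 was higher and 3 were lower, against 31.1% of all genes called. NDUFAF4, which joins early assembly steps of complex I, held 24.4, 23.8 and 27.5 CPM in overexpressing libraries, against 44.9, 45.3 and 51.0 CPM in controls. It fell by 0.90 on the log2 scale (SE 0.09, edgeR adjusted p = 0.000437), with a clear gap between the groups. It was the only called member that passed under all 19 alternatives. NDUFAF5, which modifies a core subunit of complex I during assembly, held 12.96, 13.3 and 13.3 CPM in overexpressing libraries and 9.32, 10.2 and 9.55 CPM in controls. It rose by a log2 fold change of 0.45 (SE 0.10, edgeR adjusted p = 0.0175); no library of either group overlapped with the other. The NDUFAF5 call was lost without control replicate 1 or 2 (adjusted p = 0.0753 and 0.0554 by edgeR) and without overexpressing replicate 2 or 3 (0.0700 and 0.0521). NDUFAF1, an assembly factor of the membrane arm, was below the controls in every overexpressing library (18.2 ± 2.48 against 24.8 ± 3.86 CPM, log2 fold change -0.45, edgeR adjusted p = 0.0606). NDUFAF8, the partner of NDUFAF5, had a log2 fold change of -0.44 with overlapping groups (edgeR adjusted p = 0.135).

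**Figure D4:**
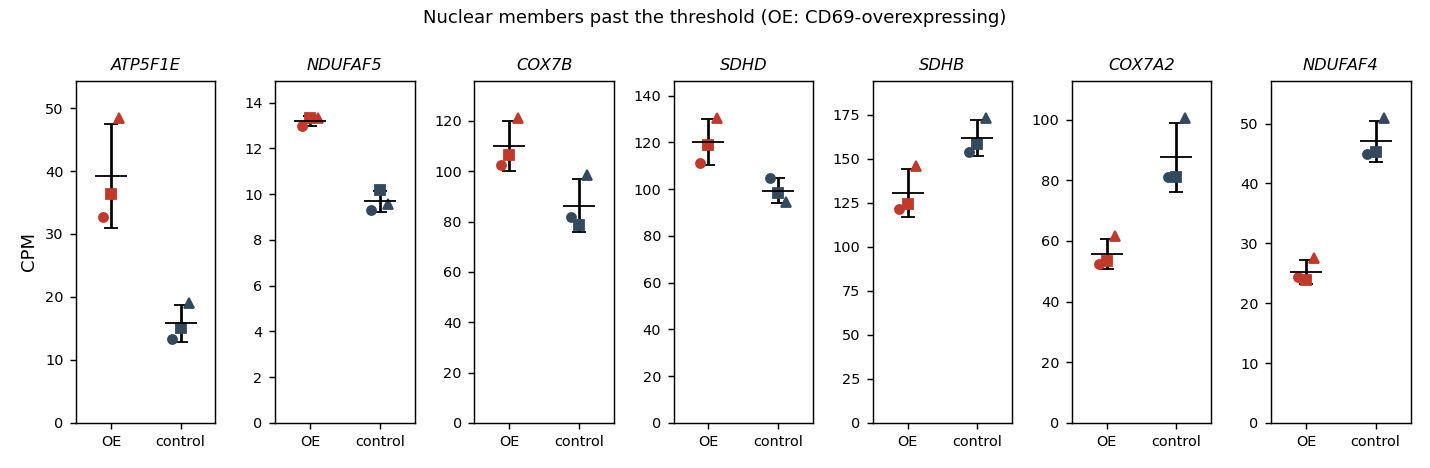
CPM of the 7 nuclear members past the threshold. Points are single libraries, 3 overexpressing (OE, left) and 3 control (right) in each panel, with the group mean and SD. Every y axis starts at 0. NDUFAF4, COX7A2 and SDHB are lower and the other 4 higher in overexpressing libraries, with no overlap of groups in any panel.

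Of these 7 genes, 5 lie on chromosomes 6, 20 and X, in stretches where most called neighbours moved the same way as the member. Among coding genes of at least 5 CPM within 5 Mb of ATP5F1E (chromosome 20, 59025467 to 59032382), 35 of 58 were higher and 2 lower, with a median log2 fold change of 0.39. Around NDUFAF5 (chromosome 20, 13784950 to 13821582) 12 of 20 were higher and none lower, with a median of 0.60, and around COX7B (chromosome X, 77899438 to 77907373) 8 of 13 were higher and none lower, with a median of 0.44. The falls had neighbours that moved down: 6 of 16 were lower and none higher around COX7A2 (chromosome 6, 75237675 to 75250323; median -0.40), and 4 of 10 lower and none higher around NDUFAF4 (chromosome 6, 96889313 to 96897881; median -0.23). Around SDHB (chromosome 1, 17018722 to 17054170) and SDHD (chromosome 11, 112086773 to 112120013) the medians were both -0.01. Of the 48 genes around SDHB 4 were higher and 6 lower, and of the 32 around SDHD 2 were higher and 1 lower. All of these counts leave out the members themselves and use edgeR's adjusted p under 0.05. Over all 10145 such coding genes, 18.02% were higher, 15.7% lower and the median was -0.01. The fold changes of ATP5F1E, COX7A2 and NDUFAF4 were larger in size than their neighbours' medians, and those of COX7B and NDUFAF5 were smaller. The part of the neighbourhood in these differences was not tested.

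Chromosomes 20 and X as a whole had medians of 0.40 over 284 coding genes and 0.49 over 323. Chromosome 6 moved both ways, with 131 of 522 coding genes higher and 149 lower and a median of -0.07. The 3 X-linked members, COX7B (0.35), NDUFA1 (0.39) and NDUFB11 (0.22), all had positive log2 fold changes, each below that of the chromosome. With members on chromosomes 6, 15, 20 and X left out, an alternative chosen after seeing the data, 1 of 83 tested nuclear members was higher and 1 lower, and their median was -0.09. That is 2.41% of those tested, against 24.1% of all genes on every chromosome. The share of all genes off these chromosomes was not counted. The low count follows from the choice, since the chromosomes left out hold 5 of the 7 called nuclear members. Chromosome 15 holds none of them.

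**Figure D5:**
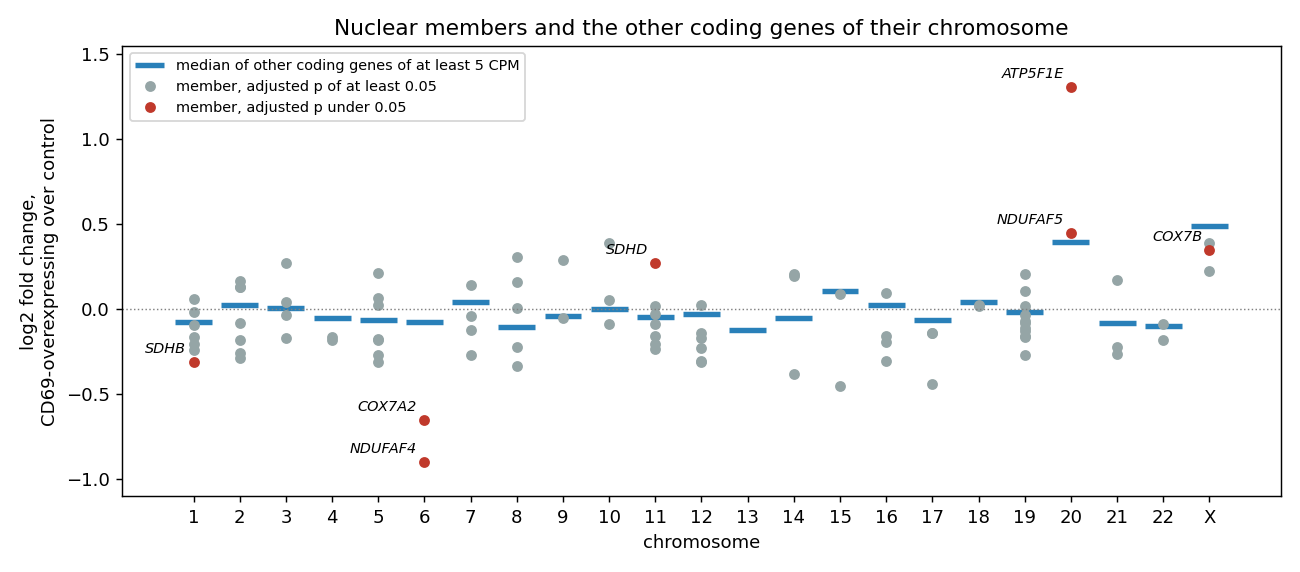
Nuclear members by chromosome. The y axis is the log2 fold change, overexpressing over control. Points are members, red where the edgeR adjusted p was under 0.05, and blue bars are the medians of the other coding genes of at least 5 CPM on the same chromosome. The bars of chromosomes 20 and X stand at 0.40 and 0.49, and the members of those chromosomes are all positive.

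Genes that build, feed and express the chain were followed as lists, to be read against the same background. Of 46 further assembly factors, 10 were higher and 5 lower, with a median log2 fold change of 0.05. COX11, which delivers copper to complex IV, held 89.0, 91.0 and 89.5 CPM in overexpressing libraries and 47.2, 47.9 and 47.7 CPM in controls. Its groups were far apart (log2 fold change 0.92, SE 0.06, edgeR adjusted p = 5.87e-05). SDHAF3 (0.66) and SDHAF1 (1.00), factors for the iron-sulfur clusters of SDHB, rose on the log2 scale. COA7, a factor for complex IV, fell by 0.45 on the log2 scale. SDHAF1 is named beside SDHB after its values were seen.

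Of 17 genes for electron carriers and ubiquinone synthesis, 4 were higher and 4 lower. COQ10A, which binds ubiquinone, rose by a log2 fold change of 0.72, while PDSS2 (-0.48) and COQ3 (-0.63), enzymes that make ubiquinone, fell. Both lie on chromosome 6. CYCS, the cytochrome c that joins complexes III and IV, was chosen after its values were seen and held 262, 254 and 306 CPM in overexpressing libraries and 342, 340.1 and 362 CPM in controls. It was lower in every overexpressing library (log2 fold change -0.35, edgeR adjusted p = 0.0205).

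Of 34 genes for copying, transcribing and processing mitochondrial DNA and its RNA, 5 were higher and 3 lower. MTERF2, a protein of the mitochondrial termination factor family, held 7.98, 7.88 and 8.19 CPM in overexpressing libraries, against 0.946, 0.846 and 1.11 CPM in controls. This was the largest fold change among the called genes of these lists (log2 3.05, SE 0.18, edgeR adjusted p = 4.74e-05). FASTKD1 (0.73) and FASTKD5 (0.52), of a family that binds mitochondrial RNA, rose as well on the log2 scale. FASTKD5 lies on chromosome 20, whose median was 0.40.

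Among 11 tested regulators, 2 rose and 2 fell. PPARGC1A, the coactivator PGC-1α of mitochondrial gene expression, held 23.1, 23.8 and 18.3 CPM in overexpressing libraries and 7.41, 8.87 and 7.07 CPM in controls (log2 fold change 1.48, SE 0.15, edgeR adjusted p = 0.000398). TFEB, a regulator of lysosomes and mitochondria encoded on chromosome 6, rose by a log2 fold change of 1.09. ESRRA, an oestrogen-related receptor that works with PGC-1α, fell by 0.57 on the log2 scale. The medians of nuclear and mitochondrial members stood at -0.09 and 0.11 beside these values, and whether the regulators bear on them was not tested.

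The citric acid cycle and pyruvate dehydrogenase list held 5 higher and 3 lower of 19 genes. IDH3A (0.39), a subunit of the enzyme that oxidises isocitrate, and PDHA1 (0.40), a subunit of the enzyme that feeds pyruvate in, rose on the log2 scale. IDH3A lies on chromosome 15, whose median was 0.11, and PDHA1 on chromosome X, whose median of 0.49 was above its own value. Of 78 proteins of the mitochondrial ribosome, 7 were higher and 9 lower, with a median log2 fold change of -0.11 like that of the nuclear subunits. MRPS10 (0.52) and MRPS18A (0.71), both on chromosome 6, rose and MRPL1 (-0.71) fell on the log2 scale. Of 14 subunits and modulators outside the prefixes, 3 rose and none fell by edgeR: the ADP/ATP carriers SLC25A5 (0.43) and SLC25A4 (0.82) and the complex IV modulator HIGD1A (0.27). SLC25A5 lies on chromosome X, and its value was also below that chromosome's median.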

How the data were processed

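Estimated counts per gene for 6 libraries were used as the authors deposited them, in 1 table made from aligned reads per the submitters' processing notes. All values are whole, with an excess at 4 and 8 in every library, so that 1 fragment may stand for about 4 counts. Those notes name FastQC, fastp, STAR and featureCounts of Subread with GRCh38 (hg38); versions, annotation release, strand setting and counting unit are not given in the sources used here. Genes were filtered with filterByExpr, scaled by TMM and tested with edgeR 4.0.16 (glmQLFit, glmQLFTest, two-sided, Benjamini-Hochberg over 19485 genes, threshold 0.05) in R 4.3.3. The same step was also run on counts simulated from this fit with known changes. The sums of both genomes and their ratio were compared by exact permutation tests over libraries. Positions, transcript lengths (principal transcript) and mitochondrial sequence came from GENCODE 29, and promoters from RefSeq GRCh38.p14. Lengths were found for all 111 members, and 61757 of the table's genes had an entry in the gene name table.

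The members and gene lists were chosen with earlier results of these data known. Named genes were CD69, the 13 mitochondrial genes, nuclear members past the threshold, or with groups that did not overlap and an unadjusted p under 0.05, the 3 highest and the lowest tested per length in each complex, tissue isoform pairs, untested members, and from each list up to 3 called genes with the smallest p. Exceptions are marked, and some genes that the rule would name are not reported here. Alternatives were DESeq2 1.42.0, limma-voom (3.58.1), other scalings, no filter or one of at least 50 counts in 3 libraries, glmTreat against a fold of 1.2, counts divided by 4, nuclear genes alone for scaling, a replicate block, each library left out, and overexpressing replicate 1 alone. No paired structure is stated: deviations of same-numbered libraries correlated at 0.08, 0.14 and 0.34, so the numbers were not taken to pair the samples. Figures were drawn with matplotlib 3.10.9.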

Additional observations from a re-analysis of the deposited data

How the results depend on the processing

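The 3 libraries a group and the shift of replicate 3 limit these results. The directions of the 10 called members held in all 19 alternatives. Against a fold of 1.2 (glmTreat), 1723 genes were higher and 874 lower, with 2 members higher and 2 lower, and CD69 no longer passed (log2 0.33, adjusted p = 0.260). With overexpressing replicate 1 alone against the controls, which assumes that it varies like the controls, 797 genes were higher and 380 lower, 0 members higher and 1 lower, the mitochondrial median was 0.064 and CD69 did not pass (0.34, adjusted p = 0.213). Members lower numbered 7 without scaling factors, 5 with at least 50 counts, 11 by DESeq2 and 6 with counts divided by 4. Without replicate 3 in both groups, chosen after seeing the data, 2957 genes were lower, and 19 members higher and 27 lower.

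Leaving out each library in turn gave 1783 to 2917 genes higher and 1137 to 2226 lower, 3 to 13 members higher and 2 to 9 lower. The mitochondrial median ran from 0.050 to 0.12 and the nuclear median from -0.19 to 0.013, positive without control replicate 3. The log2 difference of the nuclear sum ran from -0.14 to 0.022, positive without control replicate 3, and CD69 from 0.27 to 0.36. With the replicate block, 18 members were higher and 28 lower, 43.8% of members against 30.1% of all genes; replicate 3 of each group correlated best with its own number, as a hint from the data, and replicates 1 and 2 did not.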
